A study of Mus musculus with 23 samples.

Results

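Mouse embryonic stem cells labelled RAS deleted and ERF knockout, called the double mutant here, were compared with cells labelled RAS present and ERF wild type, called the reference, after 48 hours in FA, in which FGF2 and Activin A on fibronectin move them toward an epiblast-like state. The members are the 5 of the 23 RNA-seq libraries that carry these labels, a comparison picked with earlier results of these data known, 3 of the double mutant and 2 of the reference. All lines share the Raslox/lox background, which lacks functional H-Ras and N-Ras (H-Ras-/-, N-Ras-/-), carries a floxed remaining RAS gene and expresses a ubiquitous tamoxifen-inducible Cre recombinase (Ubiq-CreERT2). The reference therefore already lacks H-Ras and N-Ras and is not a wild-type cell. The libraries labelled RAS deleted had received 4-hydroxytamoxifen for 6 days and the reference had not. The drug, the RAS deletion and the ERF knockout line all differ between the groups and cannot be told apart in this pair. The labels do not say whether the ERF knockout line is 1 clone. Where they place a value, the 3 libraries labelled RAS deleted with ERF wild type (also 4-hydroxytamoxifen, FA) and the 3 labelled ERF knockout with RAS present (FA, no drug) are given too. The same double mutant and reference lines gave 3 libraries each in 2iL, which keeps cells naive through LIF and inhibitors of MEK and GSK3.

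RAS proteins pass the signal of FGF receptors through RAF and MEK to the kinase ERK, and active ERK is needed for naive cells to give up Esrrb, Klf4 and their partners and to switch on the epiblast genes. ERF is a repressor of the ETS family. ERK phosphorylates it and drives it out of the nucleus, and other ETS factors, among them Etv4 and Etv5, are activators whose own genes rise when ERK is active. The comparison asked which parts of the FA programme are at reference levels when both RAS and ERF are absent by label, and which parts are not.

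The levels of Erf, Hras and Nras do not check the labels. Erf stood at 69.8 and 56.5 CPM (counts scaled to a common library size) in the 2 reference libraries and at 49.3, 64.5 and 67.9 CPM in the 3 double mutant libraries, with a log2 difference of -0.06 (SE 0.15, edgeR adjusted p 0.847) in the quasi-likelihood test of edgeR that is used throughout. The groups overlapped, so the amount of Erf RNA does not show the ERF label. Hras, at 25.2 and 25.6 against 23.9, 25.9 and 19.3 CPM, and Nras, at 26.3 and 26.4 against 27.9, 19.2 and 23.7 CPM, are disrupted in every line by label and still had reads in all 5 libraries, with log2 differences of -0.14 and -0.15 (edgeR adjusted p 0.455 and 0.918).

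The 5 libraries held between 21974527 and 29082007 counts. Between 17.6 and 25.1% of the counts of each of the 11 FA libraries fell on Gm26917, a predicted gene. Replicates of a group differed beyond sampling noise, and since the labels do not say that they are separate cultures, the p-values measure only the spread between these samples, which may be technical. Genes on chromosome 8 stood apart in reference replicate 1: their median lay 0.28 (log2) above replicate 2, against -0.15 to -0.05 on the other chromosomes. The median double mutant minus reference difference in FA was -0.23 on chromosome 8 and -0.03 to 0.02 on each other chromosome. In 2iL, with other libraries, it was -0.17 on chromosome 8 and -0.04 to 0.05 on each other chromosome. Of the 872 tested genes there, 28 were called (3.21%), close to the share over all genes given next, and 648 of the 676 calls below are not placed there.

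The double mutant was close to the reference in FA for most of the transcriptome. Called genes are those with at least a 2-fold difference and a p under 0.05 after Benjamini-Hochberg adjustment. Of 20372 genes tested, 676 (3.32%) were called, 345 higher (1.69%) and 331 lower (1.62%) in the double mutant. The libraries labelled RAS deleted with ERF wild type had 3518 calls against the same 2 reference libraries (17.3%, with 8.93% higher and 8.33% lower), and the double mutant had 3385 calls against those RAS-deleted libraries (16.6%, with 8.13% higher and 8.48% lower). The median absolute log2 difference over all tested genes was 0.23 for the double mutant against the reference and 0.42 for the RAS-deleted libraries against it. Of the 676 genes, 591 are protein coding and 303 reached a group mean of 5 CPM, while 112 stayed under 1 CPM in both groups. Differences of 4-fold or more were found for 174 of them, 65 higher and 109 lower.

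The genes that RAS deletion changed can be sorted by where the double mutant stood. Of the 3518 genes called for RAS deletion, 2012 (57.2%) were back at reference, which means called in the opposite direction against the RAS-deleted libraries, not called against the reference and within 2-fold of it. A further 116 were part way back, 44 lay past the reference on the other side, and 235 (6.68%) were unrestored, with the double mutant called against the reference in the same direction and not called against the RAS-deleted libraries. The remaining 1111 met none of these rules. Of the 1820 rises 1018 were back at reference and 107 unrestored, and of the 1698 falls 994 and 128 were. The comparisons behind these classes share the reference libraries or the RAS-deleted ones. A chance deviation of either group therefore enters more than 1 of them, and a chance deviation of the RAS-deleted libraries favours the class back at reference. These counts are a description with no test.

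A view with no library in common between lines is the response to the medium. In the reference line 4891 genes were called between FA and 2iL (24% of those tested), 2691 higher (13.2%) and 2200 lower (10.8%) in FA. In the double mutant 3118 of these (63.7%) were called in the same direction, which is 61.4% of its own 5076 calls (24.9% of all genes, 14.5% higher and 10.4% lower), and 70 in the opposite one. With RAS deleted alone, 2019 (41.3%) were called in the same direction, 59.9% of its own 3371 calls (16.5% of all genes, 9.96% higher and 6.59% lower), and 109 in the opposite one. Over the genes higher in FA the median log2 response was 2.06 in the reference, 1.62 in the double mutant and 1.04 with RAS deleted alone. Over the genes lower in FA it was -1.83, -1.33 and -0.80. These genes were selected on the reference libraries, which favours the size of the reference response.

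Naive pluripotency genes were mostly near reference levels in the double mutant. Of the 18 genes of the naive list, 0 were called higher and 3 lower against the reference, beside 1.69% and 1.62% of all tested genes, with a median log2 difference of -0.24 beside 0.00 over all. Against the same reference the RAS-deleted libraries had 13 called higher and 0 lower, beside 8.93% and 8.33% of all tested genes, with a median of 2.47. Against the RAS-deleted libraries the double mutant had 16 of the 18 called lower, beside 8.48% of all. Leaving out any 1 of the 5 libraries again gave 3 called lower and 0 higher, though not always the same genes.

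Esrrb, an orphan nuclear receptor of the naive network, stood at 31.9 and 22.3 CPM in the reference, 30.7, 26.9 and 30.2 in the double mutant and 221, 185 and 173 with RAS deleted alone. Double mutant and reference overlapped, and their log2 difference was 0.11 (SE 0.15, edgeR adjusted p 0.741). Klf4, a zinc finger activator of naive genes, stood at 3.56 and 3.36 CPM in the reference, 4.89, 3.27 and 5.51 in the double mutant and 46.4, 35.1 and 32.6 with RAS deleted, a double mutant difference of 0.40 (SE 0.19, edgeR adjusted p 0.202). Zfp42, known as Rex1 and widely used as a naive reporter, read 36.8 and 21.2 CPM in the reference, 39.8, 28 and 32.7 in the double mutant and 442, 348 and 307 with RAS deleted, with a difference of 0.20 (SE 0.20, edgeR adjusted p 0.611). For both genes the double mutant overlapped the reference and every RAS-deleted library lay above. The overlap for Zfp42 rests on reference replicate 1, since every double mutant library lay above reference replicate 2. Prdm14, which represses FGF signalling in naive cells, was near its reference level of 0.792 and 0.616 CPM at 1.19, 0.612 and 1.53 CPM, while the RAS-deleted libraries held 35.8, 24.8 and 22.1 CPM. Its difference was 0.64 (SE 0.39, edgeR adjusted p 0.35).

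Nanog did not return all the way. It stood at 93.6 and 100.1 CPM in the reference and at 169.7, 175 and 171 CPM in the double mutant, and at 588, 453 and 331 CPM with RAS deleted. The 3 groups did not overlap. Its log2 difference of 0.83 (SE 0.17, edgeR adjusted p 0.00306) passed the adjusted p but not the 2-fold minimum. Fgf4, the FGF ligand that naive cells make, and Dppa5a, an abundant RNA-binding protein of these cells with close paralogs, were not called, at -0.17 and -0.27 (edgeR adjusted p 0.442 and 0.268).

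The 3 naive genes that fell were Tbx3, Tcl1 and Dppa3. Tbx3, a T-box factor that supports self-renewal, read 26 and 18.7 CPM in the reference and 7.27, 5.84 and 5.3 CPM in the double mutant, with 179.7, 95.5 and 78.3 CPM when RAS alone was deleted. The double mutant thus lay below both groups, with a difference from the reference of -1.86 (SE 0.31, edgeR adjusted p 0.000773). Tcl1, a co-activator of AKT, went from 4.64 and 4.36 to 1.9, 1.39 and 1.95 CPM, a difference of -1.36 (SE 0.27, edgeR adjusted p 0.00204). Dppa3, a maternal factor that protects methylation marks, went from 3.78 and 4.31 to 1.29, 2.2 and 1.28 CPM, a difference of -1.35 (SE 0.30, edgeR adjusted p 0.00666). The call for Dppa3 was lost without reference replicate 2 (-1.25), where here and below the value in parentheses is the log2 difference under that change.

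**Figure D1:**
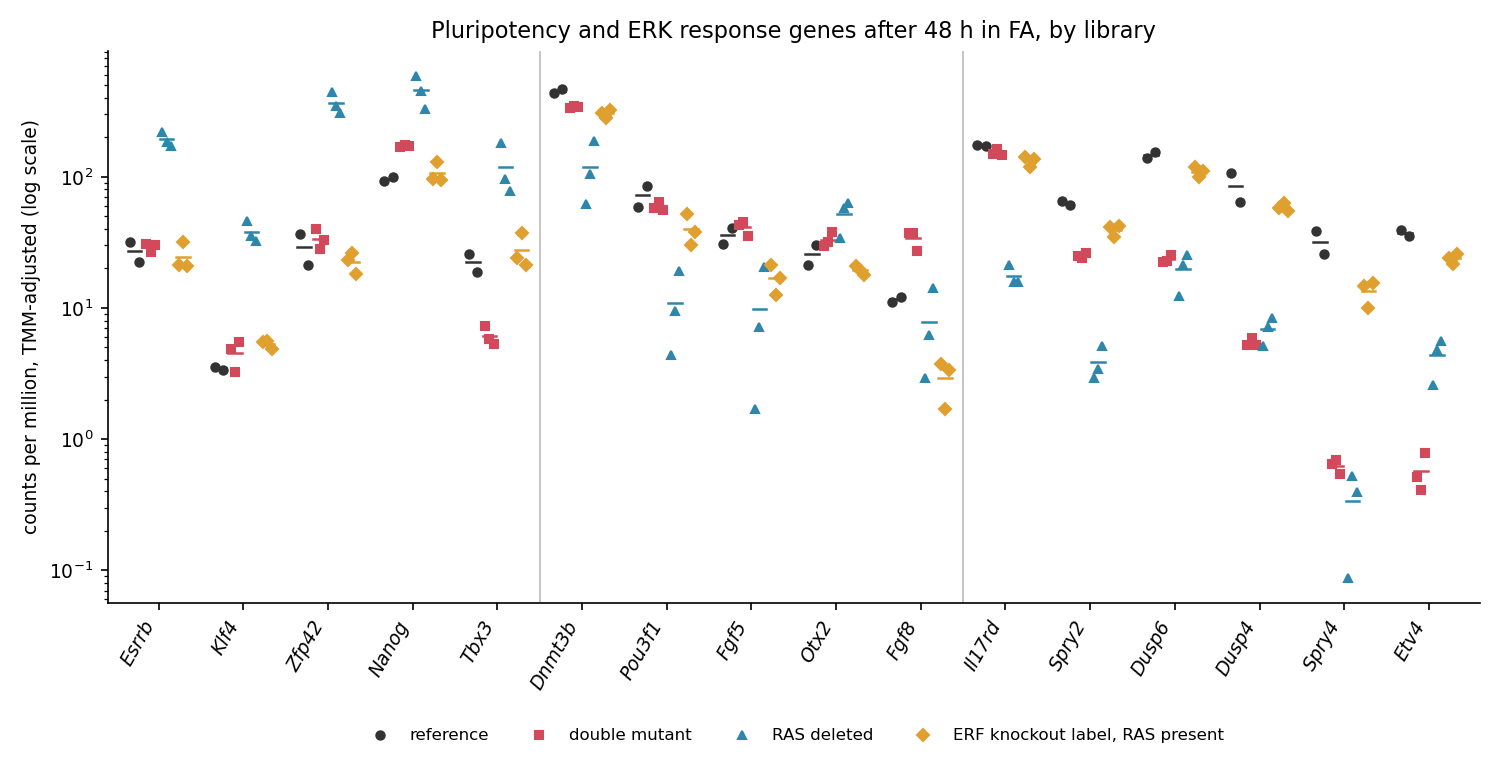
CPM on a log axis for 16 genes in each of the 11 FA libraries, with naive genes at left, epiblast genes in the middle and ERK response genes at right; symbols are single libraries and short bars are group means. The RAS-deleted libraries stand far above the others for the naive genes, where the double mutant overlaps the reference for Esrrb, Klf4 and Zfp42, lies above it for Nanog and below it for Tbx3. For Dusp6, Dusp4, Spry4 and Etv4 the double mutant sits near the RAS-deleted libraries or, for Etv4, below them.

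Epiblast genes were mostly at reference levels. Of the 20 genes of the formative and primed list, 1 was called higher and 0 lower in the double mutant, beside 1.69% and 1.62% of all tested genes, with a median of 0.08. The RAS-deleted libraries had 2 called higher and 10 lower, beside 8.93% and 8.33% of all tested genes, with a median of -0.92. The double mutant had 11 called higher than those libraries, beside 8.13% of all.

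Dnmt3b, a de novo DNA methyltransferase switched on in the epiblast, stood at 437 and 463 CPM in the reference, 332, 346 and 340.0 in the double mutant and 62, 105 and 187 with RAS deleted. The double mutant lay below the reference in every library, and the difference of -0.41 (SE 0.31, edgeR adjusted p 0.469) did not pass the test. Pou3f1, a POU factor of the formative state also called Oct6, stood at 59.1 and 85.4 CPM in the reference, 57.3, 63.8 and 56.1 in the double mutant and 4.38, 9.44 and 19.2 with RAS deleted, with a double mutant difference of -0.29 (SE 0.35, edgeR adjusted p 0.684). Fgf5, the ligand that marks the early epiblast, read 30.7 and 41 CPM in the reference, 42.6, 45.2 and 35.5 in the double mutant and 1.71, 7.13 and 20.6 with RAS deleted, a difference of 0.20 (SE 0.50, edgeR adjusted p 0.858). Double mutant and reference overlapped for Pou3f1 and Fgf5. The RAS-deleted replicates spread widely for all 3 genes.

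Otx2, a homeobox factor that drives the switch from naive to formative enhancers, differed from the reference by 0.36 (SE 0.19, edgeR adjusted p 0.26). Dnmt3a and Dnmt3l, partners of Dnmt3b, differed by -0.42 and 0.04 (edgeR adjusted p 0.0331 and 0.952), both under 2-fold. Lef1, a nuclear partner of beta-catenin, stood at 107 and 79.8 CPM in the reference and 54.3, 48.8 and 54.4 in the double mutant, lower in each library but not called at -0.83 (SE 0.45, edgeR adjusted p 0.29).

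Fgf8, a ligand of the late epiblast and primitive streak, was the 1 epiblast gene called. It stood at 11 and 12.2 CPM in the reference and 37.6, 37.5 and 27.3 CPM in the double mutant, above both the RAS-deleted libraries at 2.94, 6.2 and 14.2 CPM and the libraries with the ERF label alone at 3.75, 1.69 and 3.35 CPM. The difference was 1.55 (SE 0.40, edgeR adjusted p 0.019). The call was lost without reference replicate 1 (1.5), reference replicate 2 (1.63), double mutant replicate 1 (1.48) or double mutant replicate 2 (1.49) and with the replicate number as a block (1.43).

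Of 10 general pluripotency genes, 0 were called higher and 1 lower (median -0.17), beside 1.69% and 1.62% of all tested genes. At an unadjusted edgeR p under 0.05 stood 5 of them. The share of all tested genes at that unadjusted p is not given, here or below. With the replicate block 2 were called lower. Utf1, a chromatin factor of pluripotent cells, went from 214 and 268 to 108, 114 and 131 CPM, a difference of -1.03 (SE 0.12, edgeR adjusted p 2.46e-06) that lies at the 2-fold limit. Its call was lost without reference replicate 2 (-0.86) or double mutant replicate 1 (-0.98). Pou5f1, which encodes Oct4, differed by -0.45 (SE 0.09, edgeR adjusted p 0.00163) and Tdgf1, a Nodal co-receptor, by -0.99 (SE 0.14, edgeR adjusted p 9.13e-05), both lower in every library and under 2-fold. Lin28a and L1td1, RNA-binding proteins, differed by 0.50 and -0.27 (edgeR adjusted p 0.404 and 0.399).

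Many ERK response genes stayed below the reference. Of the 24 genes of the list of ERK feedback inhibitors and targets, 12 were called, 11 lower and 1 higher, beside 3.32% of all tested genes. Their median log2 difference was -0.84 in the double mutant and -1.11 in the RAS-deleted libraries, which had 2 called higher and 12 lower, beside 8.93% and 8.33% of all tested genes. Between 8 and 11 were called lower when any 1 of the 5 libraries was dropped, with 8 without reference replicate 1. Of the 14 list genes called for RAS deletion, 6 were unrestored, 2 part way and 3 back at reference, and 3 met none of the rules. Over all genes called for RAS deletion these shares were 6.68%, 3.3%, 57.2% and 31.6%. The libraries with the ERF label and RAS present had 1 called lower and 1 higher, where 2.36% of all tested genes were called, 1.58% higher and 0.78% lower.

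Promoter sequences of 4 genes are shown first, because 2 of them were called lower than the reference in the double mutant (Dusp6 and Spry2) and 2 are naive genes that RAS deletion raised (Klf4 and Nanog), so that both kinds can be read for the letters that ETS factors bind. Each is the 250 bases before the annotated start in the RefSeq annotation of GRCm38.p6, 5′ to 3′ along the gene's strand, with each GGAA or its reverse complement TTCC in capitals.
Dusp6 (chr10:99262981-99263230, plus strand): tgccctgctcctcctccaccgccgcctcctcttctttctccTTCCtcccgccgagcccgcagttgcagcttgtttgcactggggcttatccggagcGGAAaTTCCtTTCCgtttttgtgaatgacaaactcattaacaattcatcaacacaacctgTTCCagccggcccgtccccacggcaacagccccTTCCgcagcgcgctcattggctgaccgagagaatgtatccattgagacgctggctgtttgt
Spry2 (chr14:105896820-105897069, minus strand): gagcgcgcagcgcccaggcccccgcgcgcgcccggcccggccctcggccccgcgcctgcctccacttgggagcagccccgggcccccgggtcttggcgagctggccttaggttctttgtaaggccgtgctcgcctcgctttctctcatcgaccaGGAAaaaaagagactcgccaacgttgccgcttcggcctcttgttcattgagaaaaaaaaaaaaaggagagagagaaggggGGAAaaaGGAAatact
Klf4 (chr4:55532476-55532725, minus strand): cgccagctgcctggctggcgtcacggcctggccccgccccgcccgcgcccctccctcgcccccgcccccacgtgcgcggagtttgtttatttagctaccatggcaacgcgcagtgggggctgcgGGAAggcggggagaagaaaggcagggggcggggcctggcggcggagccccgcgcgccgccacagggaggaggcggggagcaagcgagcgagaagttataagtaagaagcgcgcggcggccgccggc
Nanog (chr6:122707239-122707488, plus strand, the first of 2 promoters listed): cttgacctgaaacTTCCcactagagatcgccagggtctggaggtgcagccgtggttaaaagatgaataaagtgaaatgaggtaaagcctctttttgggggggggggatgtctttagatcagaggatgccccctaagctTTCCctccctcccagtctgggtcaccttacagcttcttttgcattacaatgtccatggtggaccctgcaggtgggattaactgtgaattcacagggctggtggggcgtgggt
GGAA, the core that ETS factors share, occurs on either strand 6 times before Dusp6, 3 times before Spry2, 1 time before Klf4 and 2 times before Nanog, counting overlapping matches. Since 94.2% of the genes in the promoter table hold this core in a window of that length, its presence sets none of them apart. The longer motif CCGGAAGT, which contains the core, was searched on both strands of the 300-base windows from 250 bases before to 50 after the start. It occurs in 7.79% of the 12852 tested genes that matched the table by symbol. It was found in 11 of 219 matched genes called lower in the double mutant (5.02%) and in 0 of 228 called higher, and in 0 of 15 matched ERK list genes and 0 of 12 matched naive genes. A match or its absence describes these windows only.

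Etv4, the ETS activator induced by FGF and ERK, showed the largest fall among the genes eligible to be named, those called with a group mean of at least 5 CPM and groups that did not overlap. It stood at 39.6 and 35.5 CPM in the reference and at 0.515, 0.408 and 0.787 CPM in the double mutant, a log2 difference of -6.04 (SE 0.27, edgeR adjusted p 1.09e-11). The RAS-deleted libraries held 2.59, 4.82 and 5.64 CPM and those with the ERF label alone 24.2, 21.7 and 26 CPM. The double mutant was thus lower than either single label, and its difference from RAS deletion alone was -2.95 (SE 0.30, edgeR adjusted p 1.06e-07). Etv5, its close relative, stood at 265 and 320.3 CPM in the reference and 168, 173 and 195 CPM in the double mutant, a difference of -0.71 (SE 0.12, edgeR adjusted p 0.00028) that stayed under 2-fold.

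The Sprouty and Spred proteins, feedback inhibitors that act between receptor and RAF, split. Spry4 read 38.3 and 25.6 CPM in the reference, 0.644, 0.694 and 0.539 CPM in the double mutant and 0.0876, 0.527 and 0.395 CPM with RAS deleted. Its double mutant difference was -5.66 (SE 0.27, edgeR adjusted p 4.22e-12), and the double mutant was not called against the RAS-deleted libraries (0.86, edgeR adjusted p 0.0739). Spry2, whose promoter is shown above, read 64.9 and 60.5 CPM in the reference, 25.1, 24 and 26.1 CPM in the double mutant and 2.94, 3.44 and 5.14 CPM with RAS deleted. It was thus part way back, -1.32 (SE 0.15, edgeR adjusted p 3.81e-06) against the reference and 2.69 (SE 0.16, edgeR adjusted p 3.29e-11) against RAS deletion. Spred3 went from 17.7 and 18.9 to 2.32, 2.16 and 2.28 CPM, a difference of -3.02 (SE 0.21, edgeR adjusted p 2.93e-09), while Spred2 differed by -0.41 (SE 0.10, edgeR adjusted p 0.00703), under 2-fold.

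Il17rd, a membrane inhibitor of FGF signalling also called Sef, was an exception in the same list. It stood at 175 and 171 CPM in the reference, 149, 162 and 146 CPM in the double mutant and 21.1, 15.7 and 15.8 CPM with RAS deleted. The double mutant lay slightly below the reference in each library, with a difference of -0.19 (SE 0.10, edgeR adjusted p 0.285), and far above RAS deletion alone, at 3.12 (SE 0.10, edgeR adjusted p 6.85e-16).

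Dusp6 and Dusp4, dual-specificity phosphatases that dephosphorylate ERK, stayed low, while Dusp5 and Dusp14 of the same list were not called. Dusp6, the cytoplasmic one, read 138 and 155 CPM in the reference, 22.5, 22.7 and 25.3 CPM in the double mutant and 12.3, 21.3 and 25.4 CPM with RAS deleted. Its double mutant difference was -2.64 (SE 0.22, edgeR adjusted p 2.64e-07), and against the RAS-deleted libraries it was 0.25 (SE 0.20, edgeR adjusted p 0.354). Dusp4, a nuclear one on chromosome 8, read 107 and 64.3 CPM in the reference and 5.25, 5.92 and 5.26 CPM in the double mutant, a difference of -3.97 (SE 0.38, edgeR adjusted p 3.81e-06). The RAS-deleted libraries held 5.17, 7.13 and 8.41 CPM. For both genes the double mutant lay far below both reference libraries and within the range of the RAS-deleted ones or close to it.

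Immediate early genes gave mixed values. Egr1 stood at 6.94 and 1.47 CPM in the reference, a spread wider than most, and at 0.837, 1.02 and 0.414 CPM in the double mutant, with a difference of -2.48 (SE 0.46, edgeR adjusted p 0.00111). Its call was lost without reference replicate 1 (-0.92) and with only the 2 groups in the fit (-2.49). Fos was the 1 gene of the list called higher, from 0.504 and 0.474 to 1.26, 1.27 and 1.2 CPM, and is named after its values were seen. Its difference was 1.33 (SE 0.31, edgeR adjusted p 0.00696), the call was lost without reference replicate 2 (1.30), and the libraries with the ERF label and RAS present held 2.4, 1.87 and 2.07 CPM. Myc, a growth-promoting factor in the ERK and cell cycle lists, read 46.4 and 35.5 CPM in the reference, 13.4, 13.5 and 10.4 CPM in the double mutant and 0.833, 1.7 and 5.32 CPM with RAS deleted. It was called lower at -1.72 (SE 0.36, edgeR adjusted p 0.00487), and the call was lost without reference replicate 1 (-1.49).

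The other calls of the list, named to complete its count after their values were seen, were Etv1, an ETS activator related to Etv4, Phlda1, an ERK-induced protein, and Dusp1, a phosphatase of several MAP kinases. Etv1 went from 47.4 and 50.1 to 17, 20.3 and 19.6 CPM, a difference of -1.36 (SE 0.32, edgeR adjusted p 0.0112), and its call was lost without reference replicate 2 (-1.32). Phlda1 went from 7.12 and 5.73 to 1.45, 1.92 and 2.11 CPM, a difference of -1.82 (SE 0.20, edgeR adjusted p 1.33e-06). Dusp1 went from 27.5 and 26 to 13.9, 13.3 and 11.7 CPM, a difference of -1.04 (SE 0.13, edgeR adjusted p 7.66e-06) at the 2-fold limit, and its call was lost without reference replicate 1 (-0.98) or double mutant replicate 3 (-0.96). In all 3 each double mutant library lay below both reference libraries.

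FGF ligands and receptors moved in both directions, with 3 of 13 called higher and 2 lower (median 0.20), beside 1.69% and 1.62% of all tested genes. Fgfr2, a receptor that the reference holds at 24.5 and 18.8 CPM, was higher in the double mutant at 50.1, 57.4 and 51.9 CPM, by 1.29 (SE 0.27, edgeR adjusted p 0.00538), and its call was lost without reference replicate 2 (1.12). The RAS-deleted libraries held 50.3, 80.9 and 107 CPM. Fgf10, a ligand of Fgfr2, was lower at 1.03, 0.694 and 0.497 against 3.27 and 2.32 CPM, a difference of -1.89 (SE 0.42, edgeR adjusted p 0.00486), and its call was lost without reference replicate 1 (-1.60). The calls for Fgfbp1, a carrier that releases FGF from the matrix, at 1.18, and for Fgfr4, at -1.02, were lost whichever of the 5 libraries was left out, under the replicate block and with effective lengths as offsets, and that for Fgfbp1 also with DESeq2. Fgfr1, the main FGF receptor of these cells, and the adaptor Frs2 differed by 0.17 and 0.05 (edgeR adjusted p 0.504 and 0.844). The ETS repressors related to Erf, Etv3 and Etv6, differed by 0.35 and 0.50, under 2-fold and higher in each library. None of the 3 genes of that list was called by edgeR or DESeq2, and 2 had an unadjusted edgeR p under 0.05.

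Many genes of the primitive and visceral endoderm, the extraembryonic layer that forms beside the epiblast, also stayed below the reference. Of 13 tested, 7 were called lower and 0 higher in the double mutant (median -1.52), beside 1.62% of all tested genes called lower. In the RAS-deleted libraries 10 were called lower (median -2.49), beside 8.33% of all. Against the RAS-deleted libraries the double mutant had 4 called higher and 0 lower (median 0.76), beside 8.13% of all called higher. In bulk RNA, fewer cells of a type and less RNA per cell cannot be told apart. The reference replicates differ here, with replicate 1 above replicate 2 for each of the 7. Between 4 and 8 were called lower when any 1 library was dropped, 4 without reference replicate 1, 8 (of 14 then tested) without reference replicate 2 and 5 without double mutant replicate 1. The median was -0.91 without reference replicate 1 and -2.03 without reference replicate 2. Ttr, Afp and Apoa1, secreted proteins of mature visceral endoderm, had too few counts to be tested. The summed level of the 13 genes was 1073 to 1474 CPM in the reference and 1196 to 1422 CPM in the double mutant. Lrp2, Sparc and Col4a1, which were not called, held most of that sum, so the sum did not fall with the 7 genes.

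Cubn, the endocytic receptor cubilin of absorptive visceral endoderm, fell most. It stood at 339.9 and 157 CPM in the reference, 3.77, 4 and 5.43 CPM in the double mutant and 0.526, 0.486 and 0.431 CPM with RAS deleted, a double mutant difference of -5.83 (SE 0.39, edgeR adjusted p 9.95e-08). Against RAS deletion alone the double mutant was higher, by 3.18 (SE 0.61, edgeR adjusted p 0.000449). Gata6, the factor that specifies primitive endoderm, stood at 24.9 and 13.6 CPM in the reference and 1.9, 2.33 and 2.94 CPM in the double mutant, a difference of -3.02 (SE 0.31, edgeR adjusted p 1.52e-06). Gata4, its partner, read 22.4 and 14.3 and 4.57, 3.67 and 6.59 CPM, at -1.90 (SE 0.38, edgeR adjusted p 0.00344), and its call was lost without reference replicate 1 (-1.51).

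Sox7, an endoderm factor, read 12.4 and 8.57 CPM in the reference and 0.547, 0.98 and 0.787 CPM in the double mutant, at -3.78 (SE 0.41, edgeR adjusted p 2.01e-06). Dab2, an endocytic adaptor that works with cubilin, read 83.4 and 54.5 and 11.2, 11.8 and 12.4 CPM, at -2.55 (SE 0.27, edgeR adjusted p 5.06e-06). None of these groups overlapped, which the rule for naming the largest falls required for Cubn and Sox7. Pdgfra, a growth factor receptor of primitive endoderm named to complete the count after its values were seen, went from 23.5 and 9.8 to 2.99, 6.77 and 7.96 CPM, at -1.51 (SE 0.39, edgeR adjusted p 0.0179), and its call was lost without reference replicate 1 (-0.72) or double mutant replicate 1 (-1.19) and with only the 2 groups in the fit (-1.53). Lrp2, the megalin partner of cubilin, lay above the reference in each library at 897, 931 and 826 against 487 and 515 CPM, by 0.82 (SE 0.21, edgeR adjusted p 0.0186), under 2-fold. Sparc and Col4a1, matrix proteins, were not called (0.55 and -0.21, edgeR adjusted p 0.112 and 0.841).

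Regulators of mesoderm and definitive endoderm had 0 of 10 called higher and 2 lower, beside 1.69% and 1.62% of all tested genes. Lhx1, a LIM homeobox factor of the streak and anterior endoderm, stood at 11.7 and 7.15 CPM in the reference, 0.161, 0.286 and 0.166 CPM in the double mutant and 0.0438, 0 and 0.108 CPM with RAS deleted. Its difference was -5.51 (SE 0.45, edgeR adjusted p 2.03e-07), and it was not called between the double mutant and RAS deletion (edgeR adjusted p 0.0738), where 1 to 7 counts or none stood in each library. Sox17, which both endoderm lists hold, was called at -1.52 (SE 0.45, edgeR adjusted p 0.0373), with the call lost without reference replicate 1 (-0.54), double mutant replicate 1 (-1.35) or double mutant replicate 2 (-1.41), with the replicate number as a block (-1.45), with only the 2 groups in the fit (-1.53) and with effective lengths as offsets (-1.24). Eomes, a T-box factor of the streak, Foxa2, an endoderm factor, and Hhex differed by -0.22, -1.68 and -0.30 (edgeR adjusted p 0.537, 0.0727 and 0.256).

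Wnt and beta-catenin targets had 2 of 17 called higher and 2 lower, beside 1.69% and 1.62% of all tested genes. The RAS-deleted libraries had 2 higher and 9 lower, beside 8.93% and 8.33%. Dkk1, a secreted Wnt antagonist, read 6.84 and 1.94 CPM in the reference and 0.193, 0.204 and 0.166 CPM in the double mutant, a difference of -4.52 (SE 0.48, edgeR adjusted p 1.21e-06). Cdx1, a caudal homeobox factor, read 1.69 and 0.663 and 0.258, 0.245 and 0.124 CPM, at -2.49 (SE 0.44, edgeR adjusted p 0.00056), and its call was lost without reference replicate 1 (-1.59). Notum, a Wnt-inactivating enzyme, was higher at 7.44, 4.69 and 4.77 against 2.84 and 1.18 CPM, by 1.45 (SE 0.30, edgeR adjusted p 0.00343), with 35.5, 30.8 and 37.7 CPM when RAS alone was deleted. Its call was lost without reference replicate 2 (1.00) and with only the 2 groups in the fit (1.45). Sp8, a zinc finger factor, was called higher at 1.33, a call lost whichever of the 5 libraries was left out and with effective lengths as offsets. Tcf7 differed by -0.33 (SE 0.10, edgeR adjusted p 0.0343) and Ccnd2 by 1.08 (SE 0.63, edgeR adjusted p 0.335).

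Early neural genes had 1 of 10 called higher and 2 lower, beside 1.69% and 1.62% of all tested genes. Pax6, a paired-box factor of the neural plate, stood at 8.35 and 9.14 CPM in the reference, 30.4, 30 and 28.8 CPM in the double mutant and 5.17, 9.16 and 13 CPM with RAS deleted. The double mutant lay above all of them, by 1.77 (SE 0.28, edgeR adjusted p 0.00023) against the reference. Sox1, the earliest neuroectoderm marker, read 39.5 and 38.4 CPM in the reference, 67.4, 71.2 and 68.4 CPM in the double mutant and 6.66, 6.48 and 8.38 CPM with RAS deleted. Its difference of 0.82 (SE 0.15, edgeR adjusted p 0.00113) stayed under 2-fold, though every double mutant library lay above every other. Hesx1, a homeobox factor of the anterior neural plate, and Olig3, a helix-loop-helix factor, were scarce, between 0.122 to 0.863 and between 0.245 to 1.8 CPM over both groups, and were called lower at -1.80 and -2.14. The call for Hesx1 was lost without reference replicate 1 (-1.72) or double mutant replicate 2 (-1.52) and with only the 2 groups in the fit (-1.81), and that for Olig3 without reference replicate 1 (-1.66). Nes and Sox21 differed by 0.00 and -0.26 (edgeR adjusted p 1 and 0.692).

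The Nodal and Activin pathway, which FA drives directly, had 1 of 18 called higher and 0 lower, beside 1.69% and 1.62% of all tested genes, with a median of -0.03. It had 3 called higher without double mutant replicate 3, 2 without reference replicate 1, and 0 higher and 1 lower without reference replicate 2. Lefty1, a Nodal antagonist and target, stood at 476 and 486 CPM in the reference and 926, 1007 and 795 CPM in the double mutant, higher in every library by 0.92 (SE 0.14, edgeR adjusted p 0.000224), just under 2-fold. Fst, an Activin-binding antagonist, was called higher at 1.51 (SE 0.37, edgeR adjusted p 0.0115) from 1.73 and 0.994 to 3.86, 4 and 3.98 CPM, and its call was lost without reference replicate 2 (1.19) and with effective lengths as offsets (1.30). Skil, a target that restrains the pathway, differed by -0.29 (SE 0.15, edgeR adjusted p 0.27).

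**Figure D2:**
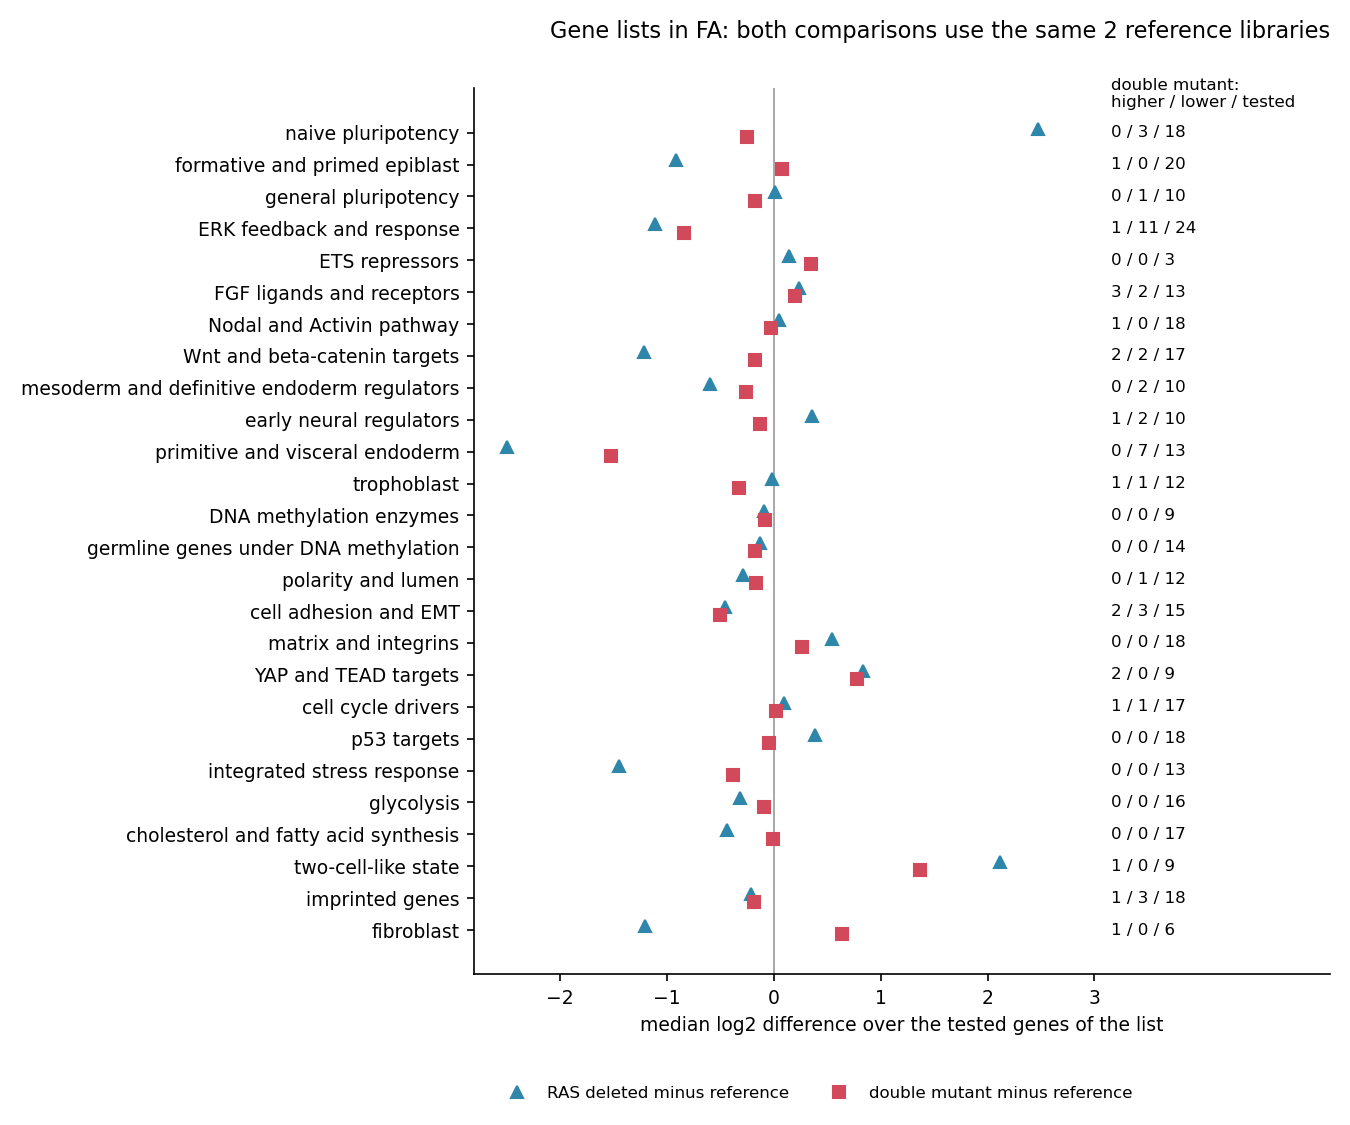
Median log2 difference over the tested genes of each of 26 gene lists, for the RAS-deleted libraries (triangles) and the double mutant (squares) against the same 2 reference libraries, with the double mutant's called counts at right. The naive list stands at 2.47 with RAS deleted and at -0.24 in the double mutant, the ERK list at -1.11 and -0.84 and the endoderm list at -2.49 and -1.52.

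Cell adhesion genes moved in both directions. Of 15 adhesion and epithelial-mesenchymal genes, 2 were called higher and 3 lower (median -0.50), beside 1.69% and 1.62% of all tested genes. The 3 lower ones are claudins of the tight junction. Cldn6 read 17.8 and 20.5 CPM in the reference, 7.27, 8 and 9.74 CPM in the double mutant and 3.37, 3.32 and 2.77 CPM with RAS deleted, a difference of -1.20 (SE 0.21, edgeR adjusted p 0.000469). Cldn7 read 6.33 and 8.52, 1.74, 1.35 and 2.07 and 1.27, 0.81 and 0.359 CPM in the same order, at -2.10 (SE 0.43, edgeR adjusted p 0.0035). Cldn3 was called at -1.12 (SE 0.22, edgeR adjusted p 0.0014), and its call was lost without reference replicate 2 (-0.67). In each the double mutant lay between the RAS-deleted and the reference libraries.

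Zeb1, a repressor of epithelial genes, was higher at 36.4, 37.1 and 42.6 against 17.1 and 18.7 CPM, by 1.11 (SE 0.12, edgeR adjusted p 2.06e-06), and stood at 41, 50.5 and 56.1 CPM with RAS deleted. Zeb2 was called higher at 1.32, a call lost whichever of the 5 libraries was left out, with the block and with effective lengths as offsets. Cdh1, which encodes E-cadherin and lies on chromosome 8, read 361 and 280.3 CPM in the reference and 172, 167 and 173 CPM in the double mutant, at -0.91 (SE 0.24, edgeR adjusted p 0.0219), under 2-fold. Epcam and Fn1 differed by -0.54 and 0.52 (edgeR adjusted p 0.0754 and 0.00868). Of 12 polarity and lumen genes 1 was called, beside 3.32% of all. It was Crb3, an apical membrane protein, lower at 1.26, 0.735 and 0.995 against 2.84 and 4.92 CPM, a difference of -1.94 (SE 0.36, edgeR adjusted p 0.00103). Tjp1, Ezr and Llgl2, junction and cortex proteins, differed by 0.09, 0.11 and -0.10, with edgeR adjusted p from 0.399 to 0.588.

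Tagln, Myl9 and Cnn2, which encode proteins of the actin cytoskeleton, were among the 10 largest rises of the double mutant. Tagln, the actin-binding protein transgelin, stood at 0.792 and 0.994 CPM in the reference and 15.6, 20.4 and 29.1 CPM in the double mutant, a difference of 4.61 (SE 0.86, edgeR adjusted p 0.00242). The RAS-deleted libraries were low at 0.482, 0.892 and 1.87 CPM, and those with the ERF label and RAS present held 5.79, 8.21 and 17.5 CPM. In 2iL, too, Tagln was higher in the double mutant, by 4.22 (SE 0.91, edgeR adjusted p 0.00234). Myl9, a myosin light chain, read 1.15 and 3.08 CPM in the reference and 15.1, 16.2 and 20.8 CPM in the double mutant, at 3.07 (SE 0.54, edgeR adjusted p 0.00108). Cnn2, a calponin, read 4.86 and 10.1 and 36.1, 37.3 and 47.5 CPM, at 2.45 (SE 0.38, edgeR adjusted p 0.000527). No double mutant library overlapped the reference for these 3 genes, which the rule for naming the largest rises required.

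Acta2, smooth muscle actin and a member of the fibroblast list, had 0 and 1 counts in the reference libraries and 33, 98 and 177 in the double mutant, with 1.83, 3.95 and 9.68 CPM under the ERF label alone. It was called (edgeR adjusted p 0.0226) but not without reference replicate 1 or 2, and with so few reference counts no fold is given. The 6 tested fibroblast markers, Acta2 included, summed to 9.89 to 10.7 CPM in the reference and 12.2 to 17.6 CPM in the double mutant. Col3a1, Lum and Postn were too low to be tested, and Col1a1 was at 0.29 (SE 0.25, edgeR adjusted p 0.532). Acta2 was the 1 call among them, beside 3.32% of all tested genes.

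Targets of YAP and TEAD, the effectors of the Hippo pathway, had 2 of 9 called higher and 0 lower, beside 1.69% and 1.62% of all tested genes. Cyr61, a matricellular protein, stood at 10.4 and 16.6 CPM in the reference, 36.9, 41.6 and 51.1 CPM in the double mutant and 61.3, 75.1 and 59.3 CPM with RAS deleted, a difference of 1.69 (SE 0.21, edgeR adjusted p 2.22e-05). Ankrd1, the other call, had 0 and 1 counts in the reference and 31, 89 and 117 in the double mutant (edgeR adjusted p 0.00481), and was not called without reference replicate 1. Ctgf, a further standard target, was at reference levels with 46.7, 63.7 and 69.5 against 45.4 and 74.1 CPM, a difference of 0.01 (SE 0.24, edgeR adjusted p 0.993). Amot, an angiomotin that holds YAP at junctions, fell from 157 and 91.2 CPM in the reference to 9.4, 8.2 and 5.88 CPM, a difference of -3.98 (SE 0.24, edgeR adjusted p 9.01e-09), and read 4.51, 6.52 and 6.76 CPM with RAS deleted. Amotl2 and Ajuba, at 0.62 and 0.31, were higher in each library and under 2-fold.

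The other large rises were of varied function. Pde1b, a phosphodiesterase of cyclic nucleotides, stood at 8.27 and 6.53 CPM in the reference and 55.9, 60 and 55.1 CPM in the double mutant, a difference of 2.94 (SE 0.19, edgeR adjusted p 1.52e-09). Miat, a long noncoding RNA, read 3.67 and 2.13 and 41.7, 49.2 and 27.3 CPM, at 3.74 (SE 0.66, edgeR adjusted p 0.00151). Cplx2, a complexin of vesicle release, read 2.7 and 4.21 and 24, 27.8 and 22.4 CPM, at 2.85 (SE 0.24, edgeR adjusted p 5.19e-08). In both the RAS-deleted libraries and those with the ERF label alone these 3 genes stayed below every double mutant library, and the double mutant was called above RAS deletion for each, by 1.64, 3.45 and 3.22 (edgeR adjusted p 1.19e-08, 7.32e-05 and 3.37e-11).

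Ror1, a receptor for Wnt5a, read 1.58 and 1.18 CPM in the reference, 7.79, 8.86 and 7.25 CPM in the double mutant and 6.53, 11 and 19.5 CPM with RAS deleted, a double mutant difference of 2.51 (SE 0.39, edgeR adjusted p 0.000147). It was thus as high with RAS deleted alone, and was not called between the double mutant and those libraries. Prr5l, a partner of mTORC2, read 1.62 and 1.47 CPM in the reference and 11.1, 12 and 11.6 CPM in the double mutant, at 2.90 (SE 0.52, edgeR adjusted p 0.000988). Tinagl1, a matrix protein, read 1.08 and 1.66 and 5.02, 11.4 and 18.6 CPM, at 3.10 (SE 0.68, edgeR adjusted p 0.00765), and was as high under the ERF label alone, at 12.9, 16.3 and 27.7 CPM. Its call was lost without reference replicate 1 (2.82) and with only the 2 groups in the fit (3.10). Fbp2, the muscle form of fructose bisphosphatase, went from 11.6 and 6.96 to 0.322, 0.286 and 0.124 CPM, at -5.19 (SE 0.59, edgeR adjusted p 1.07e-05), and held 9.86, 2.63 and 2.66 CPM with RAS deleted.

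**Figure D3:**
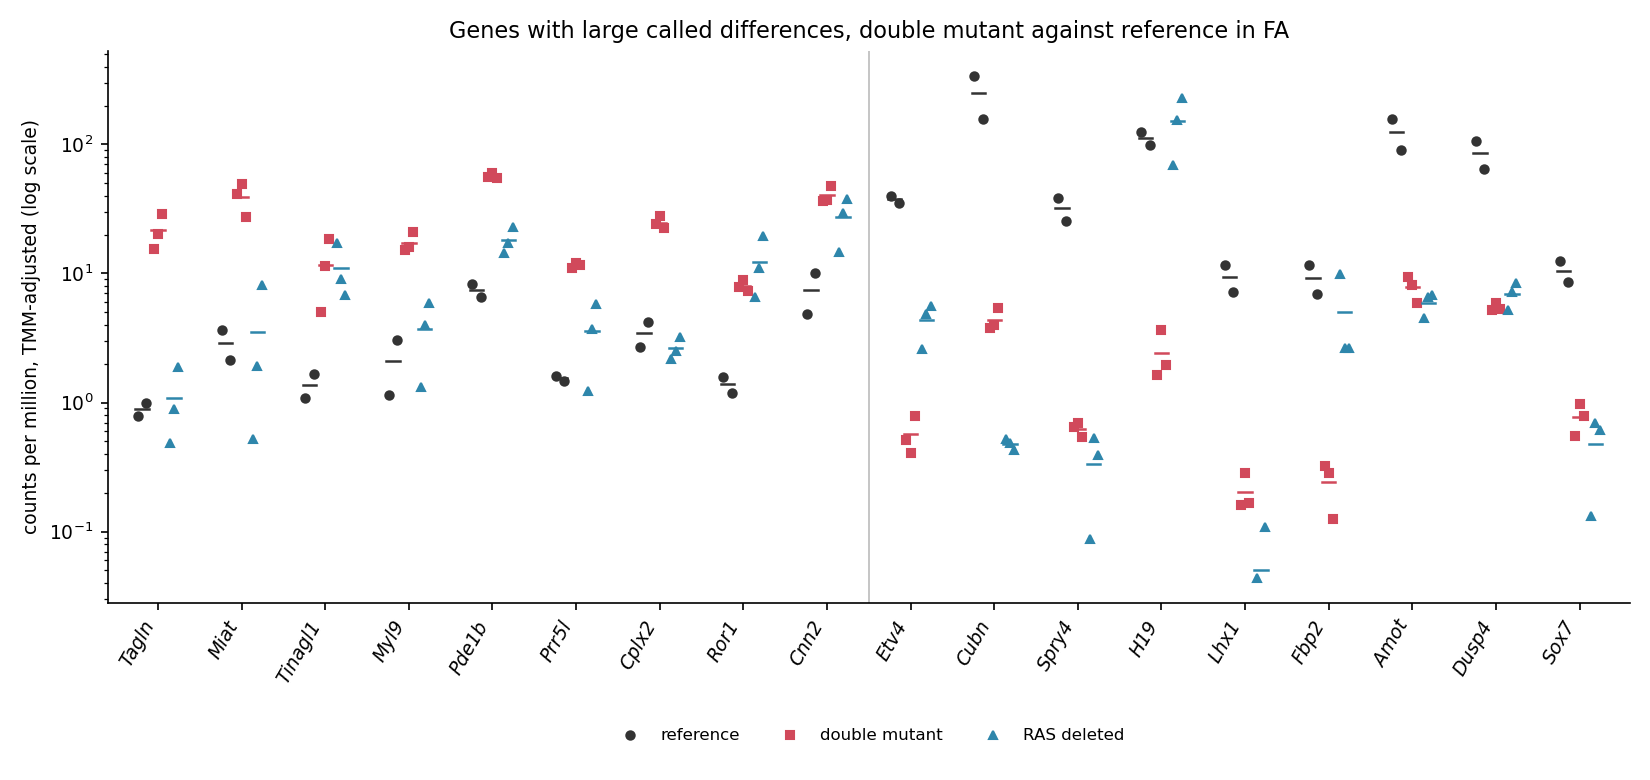
CPM on a log axis for 9 of the 10 largest rises (left) and 9 of the 10 largest falls (right) called in the double mutant against the reference in FA, in each reference, double mutant and RAS-deleted library; bars are group means, and 1 RAS-deleted value of 0 for Lhx1 cannot be drawn on this axis. Reference and double mutant do not overlap for any gene shown, which the naming rule required. H19 is high in the reference and RAS-deleted libraries and low in the double mutant.

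Imprinted genes, which are expressed from 1 parental allele, had 1 of 18 called higher and 3 lower (median -0.18), beside 1.69% and 1.62% of all tested genes. H19, a maternally expressed long noncoding RNA, stood at 126 and 98.2 CPM in the reference, 1.64, 3.67 and 1.95 CPM in the double mutant and 69.3, 155 and 229 CPM with RAS deleted. The difference was -5.55 (SE 0.47, edgeR adjusted p 1.33e-06). The libraries with the ERF label and RAS present were low too, at 3.75, 7.64 and 3.39 CPM, so low H19 went with the ERF label in FA. In 2iL the double mutant held 0.341, 0.784 and 0.472 CPM and the reference 0.21, 0.179 and 0.465 CPM, a difference of 0.90 (SE 1.29, edgeR adjusted p 0.651). Peg10, a paternally expressed gene of retroviral origin, read 1714 and 1531 CPM in the reference, 538, 542 and 512 CPM in the double mutant and 110.2, 115 and 121 CPM with RAS deleted, at -1.61 (SE 0.17, edgeR adjusted p 3.53e-06).

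Plagl1, a zinc finger regulator of imprinted genes, was higher at 25.9, 24.6 and 10.4 against 5.97 and 6.06 CPM, by 1.76 (SE 0.42, edgeR adjusted p 0.013), and held 119, 144 and 182 CPM with RAS deleted. Its call was lost without reference replicate 1 (1.77) or reference replicate 2 (1.78) and with only the 2 groups in the fit (1.76). Grb10, a growth inhibitor, read 65.6 and 179 CPM in the reference and 32.8, 29.2 and 40.3 CPM in the double mutant, at -1.84 (SE 0.33, edgeR adjusted p 0.0017), and its call was lost without reference replicate 2 (-0.94) and with only the 2 groups in the fit (-1.84). The noncoding RNAs Meg3 and Rian of 1 imprinted cluster differed by -0.03 and -0.10 (edgeR adjusted p 0.945 and 0.743). Peg3 read 420.0 and 323 and 208, 204 and 188 CPM and was not called, at -0.89 (SE 0.29, edgeR adjusted p 0.068).

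Trophoblast genes had 1 of 12 called higher and 1 lower, beside 1.69% and 1.62% of all tested genes, where RAS deletion alone had 5 each way, beside 8.93% and 8.33%. Hand1, a helix-loop-helix factor of trophoblast and mesoderm, read 6.44 and 8.1 CPM in the reference, 1.45, 1.27 and 1.53 CPM in the double mutant and 0.219, 0.284 and 0.503 CPM with RAS deleted, at -2.35 (SE 0.37, edgeR adjusted p 0.000154). Gata3 was called higher at 1.05 (SE 0.24, edgeR adjusted p 0.00657), close to the 2-fold limit, with 18.3, 18.5 and 17.5 CPM under RAS deletion, and its call was lost without reference replicate 1 (0.84) or double mutant replicate 1 (0.97). The keratins Krt8 and Krt18 were lower with RAS deleted and differed by 0.52 and -0.04 in the double mutant (edgeR adjusted p 0.526 and 0.977).

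Cell cycle drivers had 1 of 17 called higher and 1 lower, beside 1.69% and 1.62% of all tested genes. Mycn, the MYC family member of the early embryo, stood at 44.7 and 37.2 CPM in the reference, 90.6, 93.9 and 90.4 CPM in the double mutant and 123, 142 and 169 CPM with RAS deleted. It was higher by 1.16 (SE 0.13, edgeR adjusted p 1.6e-06) while Myc was lower. The cyclins Ccna2 and Ccnb1 and the kinase Cdk4 differed by -0.09, -0.13 and 0.02, with edgeR adjusted p from 0.373 to 0.955.

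Genes of the integrated stress response, through which ATF4 raises amino acid synthesis, were lower with RAS deleted and not called in the double mutant. RAS deletion alone had 11 of 13 genes called lower (median -1.45), beside 8.33% of all tested genes. The double mutant had 0 called in either direction by edgeR or DESeq2 (median -0.38), beside 3.32% of all, with 5 at an unadjusted edgeR p under 0.05, all lower. Against the RAS-deleted libraries 7 were called higher, beside 8.13% of all. Atf4 itself read 162 and 253 CPM in the reference and 161, 182 and 198 CPM in the double mutant. Asns, asparagine synthetase, read 158 and 316 CPM in the reference, 152, 165 and 231 CPM in the double mutant and 157, 106 and 71.9 CPM with RAS deleted. Psat1, of serine synthesis, read 192 and 322, 193, 205 and 251 and 119, 115 and 98.3 CPM in that order. Reference replicate 2 lay well above replicate 1 in all 3, so the list's place against the reference rests on which replicate is taken: without reference replicate 1, 3 of 13 were called lower, without reference replicate 2, 0, and without double mutant replicate 3, 2. The list's median was -0.77 without reference replicate 1 and turned to 0.18 without reference replicate 2.

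Besides the stress response and ETS repressor lists, 6 lists had no call between the double mutant and the reference by edgeR or DESeq2. They were the DNA methylation enzymes (0 of 9, with 6 at an unadjusted edgeR p under 0.05), germline genes under DNA methylation (0 of 14, 2), matrix and integrins (0 of 18, 9), p53 targets (0 of 18, 4), glycolysis (0 of 16, 6) and cholesterol and fatty acid synthesis (0 of 17, 1). Without reference replicate 1 the germline list had 2 called lower (median -0.59), and without reference replicate 2 it had 1 called higher (median 0.39), so its place against the reference rests on which replicate is taken. Without reference replicate 2, 1 DNA methylation enzyme was also called lower and 1 p53 target higher. No share of all tested genes stands beside the counts at unadjusted p, while 2027 of 20372 genes had an edgeR adjusted p under 0.05. The 9 matrix genes were all higher. Among them Lama5, a laminin chain, was at 0.57 and Hspg2, perlecan, at 0.55 (edgeR adjusted p 0.000424 and 0.00247), and both lay above the reference in every library. Dazl, a germline RNA-binding protein that RAS deletion raised to 60, 64.9 and 47.4 CPM, read 9.21 and 12.8 CPM in the reference and 11.6, 9.59 and 11.7 CPM in the double mutant. The libraries with the ERF label and RAS present had 7 of the 14 germline genes called higher than the reference, beside 1.58% of all tested genes. Tuba3a, a testis tubulin, and Rpl10l, a retrogene copy of a ribosomal protein gene, differed in the double mutant by -0.33 and 0.24. Uhrf1, the partner of maintenance methylation, and Tet1, a demethylating enzyme, differed by 0.24 and -0.41 (edgeR adjusted p 0.116 and 0.0634).

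Metabolic and p53 genes were within small differences. The glucose transporter Slc2a3 and the glycolytic enzymes Aldoa and Pkm differed by 0.16, -0.25 and -0.08. Srebf2, the regulator of sterol synthesis, and the lipid enzymes Scd2 and Fasn differed by -0.08, 0.15 and 0.26. The p53 targets Trp53inp1, Ccng1 and Zmat3 differed by 0.44, 0.17 and 0.09. Of these 9 genes only Trp53inp1 had an edgeR adjusted p under 0.05 (0.0163).

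Of 9 genes of the two-cell-like state, a rare state of cultured stem cells, 1 was called higher and 0 lower, beside 1.69% and 1.62% of all tested genes. With the replicate number as a block 6 of 9 were called higher, and 0 were called without reference replicate 2 or double mutant replicate 1 or 2. The 9 summed to 42.4 to 82.5 CPM in the reference and to 88.0 to 221 CPM in the double mutant, with a median of 1.37. Zscan4f read 32.8 and 19.5 CPM in the reference and 91, 74.6 and 38.4 CPM in the double mutant, at 1.37 (SE 0.66, edgeR adjusted p 0.226). Zscan4a and Zscan4c, near-identical copies among which reads could be split, were at 1.41 and 1.42 and not called. Zfp352 was called at 2.19 (SE 0.59, edgeR adjusted p 0.0187), and its call was lost without reference replicate 2 (1.73), double mutant replicate 1 (1.82) or double mutant replicate 2 (2.11) and with only the 2 groups in the fit (2.19). In 2iL all 9 were called higher in the double mutant (median 3.30), beside 4.58% of all tested genes called higher there.

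The genes that RAS deletion moved most are described next. They are few, and over all its calls rises and falls were back at reference in similar shares, as counted above. Among its 10 largest rises, 7 were not called in the double mutant against the reference. Aqp3, a water and glycerol channel, stood at 1.26 and 1.04 CPM in the reference, 184, 63.8 and 48.8 CPM with RAS deleted and 1.64, 1.18 and 0.746 CPM in the double mutant. Lrrc15, a leucine-rich membrane protein, stood at 0.792 and 0.521, 36.2, 38.1 and 48.1 and 0.579, 0.49 and 0.497 CPM in that order. Fat2, an atypical cadherin, Slc26a9, an anion channel, Aspa, aspartoacylase, and Ly6a, a surface protein with similar relatives, stood at 0.373 to 0.451, 0.0408 to 0.0966, 0.122 to 0.207 and 0.0816 to 0.207 CPM in the double mutant, overlapping the reference, where the RAS-deleted libraries held 14.1 to 29.7, 7.1 to 9.85, 5.28 to 13.4 and 4.64 to 28.7 CPM. Prdm14 is given above.

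The other 3 rises came only part of the way down. Jam2, a junctional adhesion molecule, stood at 1.69 and 1.37 CPM in the reference, 130.4, 88.5 and 82.8 CPM with RAS deleted and 9.11, 6.9 and 6.51 CPM in the double mutant, at 2.28 (SE 0.26, edgeR adjusted p 6.81e-06). Cdhr1, a cadherin-related protein, stood at 0.54 and 0.474, 91.6, 68.7 and 65.7 and 3.51, 4.37 and 4.56 CPM in that order, at 3.00 (SE 0.40, edgeR adjusted p 4.21e-05). Lax1, a membrane adaptor with at most 1 count in a reference library, read 4.21, 5.11 and 7.55 CPM with RAS deleted and 0.483, 0.367 and 0.373 CPM in the double mutant.

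Of the 10 largest falls under RAS deletion, 9 were still called lower in the double mutant. Has2, a hyaluronan synthase, stood at 21.4 and 12.6 CPM in the reference, 0.0438, 0 and 0.18 CPM with RAS deleted and 7.27, 7.31 and 8.33 CPM in the double mutant, at -1.16 (SE 0.27, edgeR adjusted p 0.0069). Hoxb1, a homeobox factor of the posterior streak, stood at 10.6 and 10.1, 0, 0.162 and 0.467 and 5.09, 5.1 and 4.02 CPM in that order, at -1.13 (SE 0.33, edgeR adjusted p 0.0379). Both were far above the RAS-deleted libraries and did not overlap the reference. The call for Has2 was lost without reference replicate 1 (-0.70), and that for Hoxb1 whichever of the 5 libraries was left out, with the block and with effective lengths as offsets.

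Col6a5, a collagen VI chain, stood at 63.1 and 30.8 CPM in the reference and 11.9, 10 and 11.4 CPM in the double mutant, at -2.08 (SE 0.21, edgeR adjusted p 7.44e-07). Epha1, an ephrin receptor, read 11.8 and 12 and 1.06, 0.898 and 1.08 CPM, at -3.55 (SE 0.21, edgeR adjusted p 9.92e-11), and Ccdc194 read 8.92 and 7.39 and 2.25, 2.65 and 1.99 CPM, at -1.83 (SE 0.30, edgeR adjusted p 0.000387). Each was also called above the RAS-deleted libraries, as Cubn, Has2 and Hoxb1 were. Spry4 and Lhx1 were not called between the double mutant and RAS deletion alone.

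**Figure D4:**
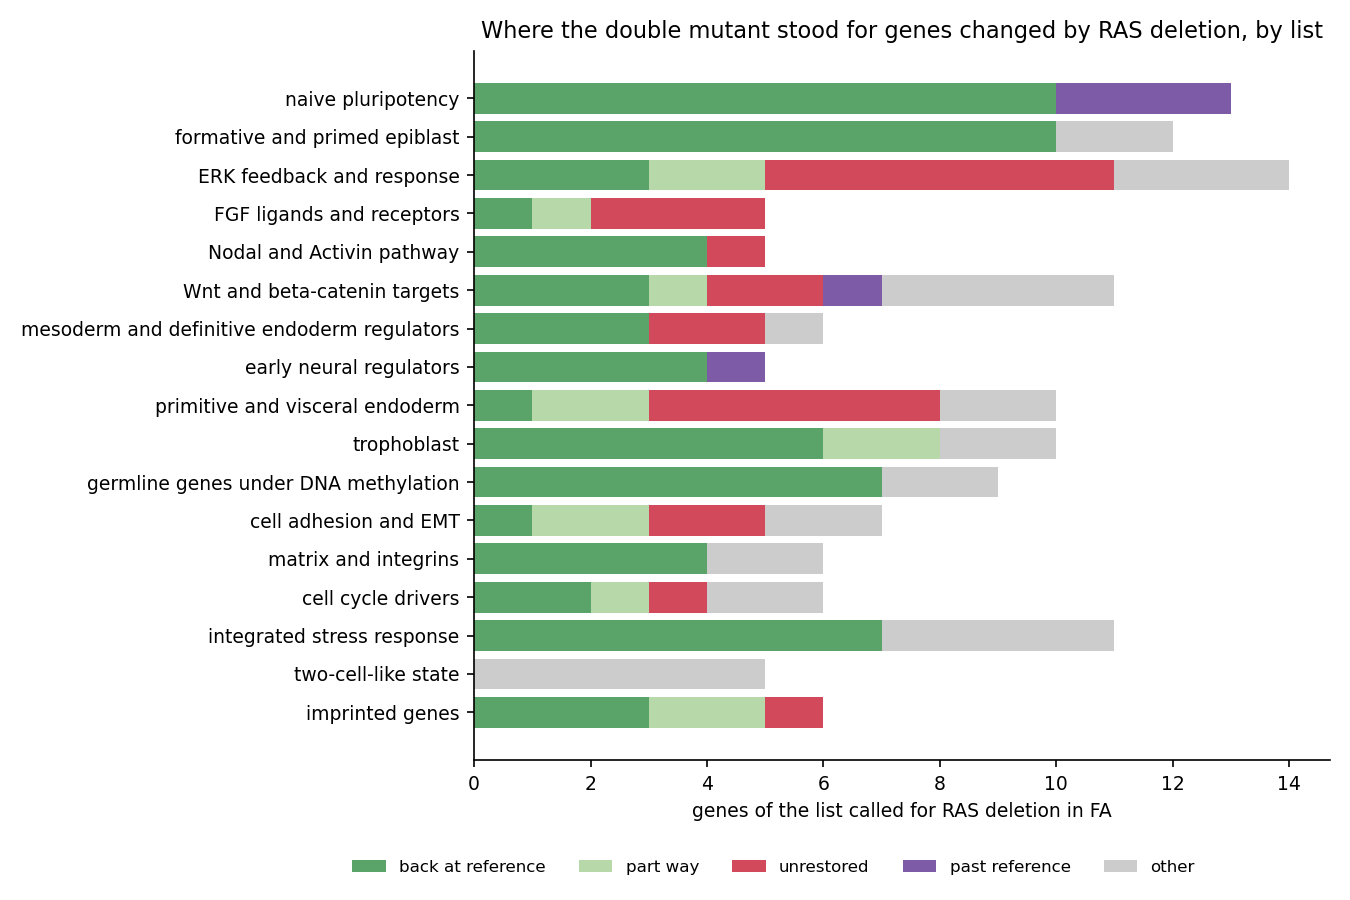
Number of genes called for RAS deletion in FA in each list with at least 5 such genes, split by where the double mutant stood. Of 13 naive genes 10 were back at reference and 3 past it. Of 14 ERK genes 3 were back and 6 unrestored, and of 10 endoderm genes 1 was back and 5 unrestored. Over all genes called for RAS deletion 57.2% were back at reference, 1.25% past it and 6.68% unrestored. The bars carry no test.

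The same lines were also compared in 2iL, with other libraries. There 1952 genes (9.58%) were called between the same lines, 933 higher (4.58%) and 1019 lower (5%). Of the 676 FA calls, 142 (21%) were called in 2iL in the same direction, 86 (12.7%) in the opposite one and 448 (66.3%) were not called there. The 142 and 86 are 7.27% and 4.41% of the 2iL calls. A test of the difference itself, the medium by genotype interaction, called 1538 genes (7.55%), 808 (3.97%) with a higher and 730 (3.58%) with a lower double mutant minus reference difference in FA than in 2iL, and 333 of the 676 FA calls (49.3%) are among them.

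Several genes with the largest negative interactions were nearly silent in 2iL in the reference, so their fitted sizes there have no firm base and counts are given. Cubn had 2, 1 and 2 counts in the 3 reference libraries in 2iL and 7, 26 and 26 in the double mutant, and in FA the order was turned round (edgeR adjusted p of the interaction 4.58e-05). Epha1 had 4, 1 and 1 against 52, 73 and 56 counts in 2iL and turned round in the same way (edgeR adjusted p 2.47e-13). Lhx1 had 0, 0 and 0 against 1, 0 and 3 counts and Ccdc194 0, 0 and 0 against 2, 4 and 6 counts in 2iL, so for these the change lies in how far each line rose in FA (edgeR adjusted p 0.00125 and 0.000218). The call for Lhx1 was lost without double mutant replicate 3 in 2iL.

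Spry4 had enough reads in both media. It stood at 0.63, 0.536 and 0.604 CPM in the reference and 5.01, 4.7 and 6.47 CPM in the double mutant in 2iL, higher by 3.16 (SE 0.28, edgeR adjusted p 2.21e-08), and in FA it was lower as given above, with an interaction of -8.82 (SE 0.39, edgeR adjusted p 3.67e-13). Etv4 was lower in the double mutant in both media. In 2iL it stood at 18.2, 14.2 and 20.4 CPM in the double mutant and 42.4, 52.8 and 53.7 CPM in the reference, a difference of -1.50 (SE 0.18, edgeR adjusted p 2.51e-06). Its interaction was -4.54 (SE 0.34, edgeR adjusted p 1.34e-08).

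The largest interactions in the other direction were Tinagl1 at 4.30 (SE 0.82, edgeR adjusted p 0.00172), Prr5l at 3.99 (SE 0.84, edgeR adjusted p 0.00228), Prrt3 at 3.55 (SE 0.25, edgeR adjusted p 1.74e-09), Hhip, a Hedgehog-binding antagonist, at 3.52 (SE 0.48, edgeR adjusted p 3.52e-05) and Ppp2r2c, a phosphatase subunit, at 3.43 (SE 0.40, edgeR adjusted p 1.49e-05). Prrt3 was not called in FA, at 8.76, 7.71 and 7.87 against 6.48 and 5.21 CPM, and was lower in the double mutant in 2iL, at 1.2, 1.4 and 1.28 against 10.2, 10.7 and 12 CPM. Over the ERK list 1 gene was called with a positive and 10 with a negative interaction. Over the endoderm list 1 and 9 were, beside 3.97% and 3.58% of all tested genes. In the reference line 10 of 13 endoderm genes and 10 of 24 ERK genes were called higher in FA than in 2iL, beside 13.2% of all tested genes, and in the double mutant 4 and 6 were, beside 14.5%.

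**Figure D5:**
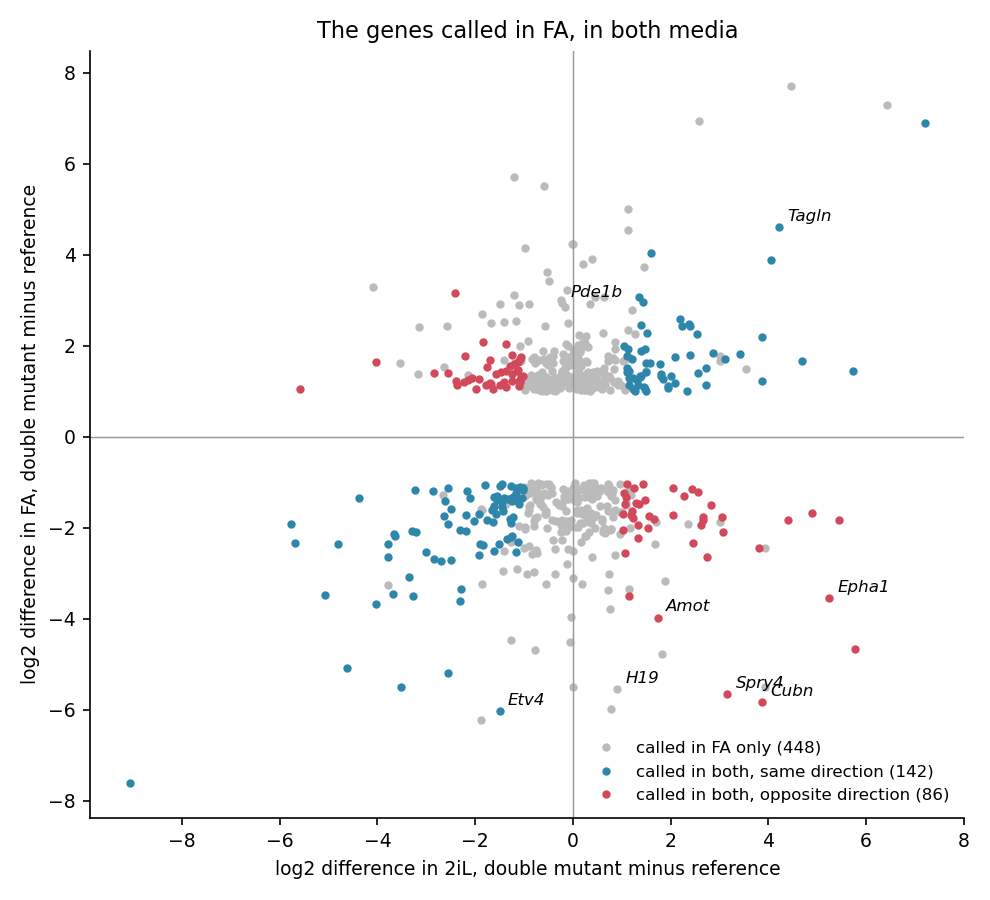
Log2 difference of the double mutant from the reference in FA (vertical) against that in 2iL (horizontal) for the 676 genes called in FA, each medium with its own libraries. For 448 of them the 2iL difference was not called, 142 are called in both media in the same direction, and 86, Cubn, Spry4, Epha1 and Amot among them, in opposite directions.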

How the data were processed

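RNA of 23 libraries was depleted of ribosomal RNA, made into directional NEBNext libraries and sequenced as 75 bp pairs, per the labels' protocols. The authors used bcl2fastq 2.20.0, fastp 0.20.0 and Salmon with build mm10, per the submitters' processing notes. The Salmon version and transcriptome are not given in the sources used here. The authors deposited estimated counts, TPM and effective lengths per gene and library, and a matrix equal to the rounded estimated counts (0 cells differ). TPM, the authors' per-length values, were not tested.

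Estimated counts were rounded and fitted over all 23 libraries, 1 coefficient a group, with edgeR 4.0.16 (TMM, quasi-likelihood, R 4.3.3) after its filter on low counts, which left 20372 of 53607 genes. Fitting all groups shares 1 estimate of the spread, which 2 reference libraries alone would give poorly. CPM use the TMM library sizes. DESeq2 1.42.0 was an alternative, and limma 3.58.1 was loaded with edgeR. On data simulated for the double mutant against reference comparison (19442 genes tested), 87% of 100 genes changed 2-fold and 99% of 100 changed 4-fold passed the adjusted p, with 2 false calls. The changed genes were drawn only from those above a minimum mean count, so scarce genes were not covered. Passing did not require the 2-fold minimum, while a false call did. The median estimate for the genes changed 2-fold was 0.99 (log2), just under that minimum. The shift of chromosome 8 was not simulated.

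Members and lists were chosen with earlier results of these data known. Named genes were the targets, the 10 largest rises and falls among non-overlapping calls of at least 5 CPM in the double mutant and in the RAS-deleted libraries against the reference, the 5 largest each way for medium by genotype, up to 5 called and the 3 most abundant uncalled members of each list, and fixed naive, epiblast and ERK genes. Predicted genes and pseudogenes were passed over. The GGAA search was added after the data were seen. The replicate numbers do not pair the libraries by label. A target gene and a few genes chosen by the naming rule are not reported here.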

Additional observations from a re-analysis of the deposited data

Results flagged for a closer look

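The difference between double mutant and reference changed with the medium, by the interaction test of edgeR, for 1538 genes. Among the genes named for it, Spry4 had an interaction of -8.82 (log2, FA minus 2iL), with the double mutant below the reference in FA and above it in 2iL. The fitted interactions of Cubn (-9.71), Lhx1 (-9.44), Epha1 (-8.8) and Ccdc194 (-7.27) rest on reference libraries in 2iL with 0 to 4 counts, so their sizes depend on the fit's handling of zeros and are not bounds. In the other direction the interaction was 4.3 for Tinagl1, 3.99 for Prr5l, 3.55 for Prrt3, 3.52 for Hhip and 3.43 for Ppp2r2c. Prrt3, Hhip and Ppp2r2c were called lower in the double mutant in 2iL, and Hhip and Ppp2r2c were called higher in FA, with the FA call of Hhip lost without reference replicate 1 (0.77), double mutant replicate 1 (1.23), double mutant replicate 2 (1.22) or double mutant replicate 3 (0.99) and with effective lengths as offsets (0.87) and that of Ppp2r2c without reference replicate 1 (1.14), reference replicate 2 (1.28) or double mutant replicate 1 (0.93). No group in the comparison holds 4 or more libraries, so no test for a single outlying library was made.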

How the results depend on the processing

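Without the 2-fold minimum the calls rose to 2027 for the double mutant against the reference in FA, 8725 for it against RAS deletion, 8420 for RAS deletion against the reference, 5739 for the double mutant against the reference in 2iL and 3640 for medium by genotype. With 1.5-fold in place of 2-fold, 370 genes were unrestored in place of 235, since more genes are counted. Leaving out 1 library gave 513 to 688, 3077 to 3494, 3099 to 3572, 1609 to 2003 and 1290 to 1775 calls in that order, 1719 to 2136 genes back at reference and 190 to 300 unrestored. DESeq2, its size factors, a looser filter, only the compared groups in the fit and effective lengths as offsets kept each of the 5 counts of calls within 1.5 times. For genes back at reference and unrestored, of these only the size factors were run. Leaving chromosome 8 out of the count, an alternative chosen after seeing the data, gave 648 calls.

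With the replicate number as a block there were 725, 3411, 3644, 1939 and 1540 calls in that order, 2057 genes back at reference and 280 unrestored. The deviations of same-numbered double mutant and reference libraries in FA correlated at 0.166 and -0.05. These 2 pairs are too few to show whether same-numbered libraries share more than a number.

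Of 169 genes chosen for naming, 77 were called and 43 kept the call under every alternative, and no direction was reversed. The other 34 lost it under at least 1, and 10 uncalled genes gained a call under at least 1. Part of these alternatives were added after seeing the data, for the genes named for RAS deletion, for medium by genotype or to complete a count. With 2 reference libraries, leaving out 1 assumes that the other varies like the remaining groups.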
